A study of Mus musculus with 12 samples.

Results

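Messenger RNA of 31 genes of the p53 pathway was compared over 12 libraries of mouse kidney tubular epithelial cells. The 31 are p53 itself, its regulators and its transcriptional targets, named by symbol and without the inhibitors of cyclin-dependent kinases. No threshold on these counts was used to choose them, but earlier results of these data were known at that time. All 31 symbols were found in the count table, and all 31 were among the 12897 genes of 55487 that had enough reads to be tested. The cells were conditionally immortalised with the large T antigen of SV40, whose activity was lowered before seeding by 7 days at 37 °C without the 10 ng/mL interferon γ used for growth at 33 °C. All had been selected with puromycin after transduction, either with an Nnmt expression construct or with a mock construct, and were then either treated with TGFβ at 10 ng/mL for 48 h or left untreated. There were 4 groups of 3 libraries: Nnmt-OE with TGFβ, Nnmt-OE untreated, mock with TGFβ and mock untreated. The sources used here do not state the construct's promoter and vector, the number of clones behind the line or whether replicates were separate cultures. The p-values therefore rest on a spread between libraries that may be technical.

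p53, encoded in the mouse by Trp53, is a transcription factor that is kept low by the ubiquitin ligase Mdm2 and held inactive by its relative Mdm4, and that accumulates when DNA damage or other stress loosens this hold. It then raises genes of growth arrest, DNA repair, metabolism and cell death, and Mdm2 as well, which closes a feedback loop. SV40 large T antigen binds p53 and blocks its activity, and in kidney tubules p53 is best known for its part in the response to acute injury and in arrest during fibrosis. Only transcript levels were measured here. p53 protein, its activity and the large T transcript were not analysed here.

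Binding of p53 is best known at pairs of a 10-base half-site, so the promoter windows of the members were read for the p53 half-site consensus decamer. Each window ran from 250 bases before to 50 bases after a start site annotated by RefSeq on GRCm38.p6. Windows were found for 23 of the 31 genes, 31 windows in all. The decamer, which is its own reverse complement and so is the same on both strands, was matched in 9 of these 31 windows (29%), against 2745 of 32851 windows of all genes (8.36%). Counted by gene, since both windows of Aen overlap and hold the same site, it was 8 of 23 members, against 2582 of 27025 genes. A pair of decamers, with 0 to 13 bases between them and at most 2 mismatches in all, was matched in 3 members' windows (9.68%), against 4.09% of all windows. These 3 are Ccng1, Bax and Sesn1. The stretches of Ccng1, Bax and Mdm2 are printed because Ccng1 was the only match among the 8 genes that fell with TGFβ (described below), 6 of which had a window, Bax had the most negative fold change between the constructs without TGFβ, and Mdm2 is the feedback gene. Each is written 5′ to 3′ along the gene, all on the minus strand, with the decamers in capitals (both members of a pair for Ccng1 and Bax), at chr11:40755337-40755536, chr7:45466949-45467148 and chr10:117710809-117711008 in that order.
Ccng1: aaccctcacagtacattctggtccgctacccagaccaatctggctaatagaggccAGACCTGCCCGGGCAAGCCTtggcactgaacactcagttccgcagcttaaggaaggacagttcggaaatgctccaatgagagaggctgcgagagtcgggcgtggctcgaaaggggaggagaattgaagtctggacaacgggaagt
Bax: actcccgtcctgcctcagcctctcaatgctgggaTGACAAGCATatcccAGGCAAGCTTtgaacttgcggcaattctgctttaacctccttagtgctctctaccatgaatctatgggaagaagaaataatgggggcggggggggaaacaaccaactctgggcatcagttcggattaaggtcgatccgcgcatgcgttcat
Mdm2: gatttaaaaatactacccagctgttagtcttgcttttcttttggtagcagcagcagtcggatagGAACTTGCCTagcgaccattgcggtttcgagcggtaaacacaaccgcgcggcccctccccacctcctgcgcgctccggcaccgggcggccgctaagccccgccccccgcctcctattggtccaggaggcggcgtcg
In Ccng1 the decamers lie side by side, with 1 mismatch in the first of them, and in Bax the first has 2 mismatches. The better known p53 elements of Mdm2 lie in its first intron, outside this window. The members were chosen as genes of the p53 pathway, so their share of matches is no result of these libraries. Of the 9 windows of genes that fell with TGFβ, 1 (11.1%) held the decamer, against 8.36% of all windows. A match describes letters only, and binding was not measured.

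Reads assigned to genes ranged from 4733846 to 7247413 per library, and the members took 24584 to 37260 of them. Counts were of reads at the 3′ ends of transcripts, given below as CPM (counts scaled to a common library size), a scale that is not divided by transcript length. Nnmt stood at 24.5, 28.5 and 22.9 CPM in untreated Nnmt-OE libraries, against 24.7, 17.8 and 18.3 CPM in untreated mock libraries, which was no call (1.25-fold, edgeR adjusted p = 0.897). With TGFβ it stood at 33.9, 22.5 and 26.3 CPM in Nnmt-OE libraries, against 33.3, 29.7 and 27.9 CPM in mock libraries (adjusted p = 0.998). The counts thus do not show the labelled overexpression. Whether the construct carries the gene's own 3′ end, which a 3′ tag would need, is not stated, and the cells are called labelled Nnmt-OE throughout. Of 13 tubule markers, Pax8, Pax2, Cdh16, Krt8, Lrp2 and Aqp1 were present at means from 74.2 to 854 CPM, while Cdh1 and Epcam had 0 counts in every library and Krt18, Krt19, Cubn and Slc34a1 averaged 0.542, 0.107, 0.884 and 0.0117 CPM. Markers of endothelium and the leukocyte genes Ptprc, Adgre1, Lyz2 and Cd3e were at or near 0. The macrophage receptor gene Csf1r, however, averaged 71.7 CPM, and Cd68, another macrophage gene, averaged 7.64 CPM. The libraries mock 1, mock TGFβ 3 and labelled Nnmt-OE TGFβ 3 stood apart from the rest in a principal component analysis.

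The members spanned a wide range of levels, and one of them outweighed the rest. Gdf15, a secreted stress cytokine of the TGFβ superfamily, averaged 1890 CPM over the 12 libraries and made up 31.5 to 43.1% of the members' reads. It was followed by Mdm2 at a mean of 406 CPM, Zmat3 at 380, Ccng1 at 342, Trp53inp1 at 281, Psrc1 at 249, Phlda3 at 210 and Perp at 200 CPM. Plk2 averaged 157, Dglucy 123, Btg2 120, Mdm4 98.5, Bbc3 98.5, Eda2r 89.1 and Ei24 69.6 CPM. Trp53 itself was a moderately abundant transcript at 66.3 CPM.

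The genes below Trp53 were Polk at 63.6 CPM, Sesn2 at 58.4, Ercc5 at 53.1, Ccng2 at 51.9, Bax at 42.6, Apaf1 at 40.4, Tnfrsf10b at 40.3, Xpc at 33.2 and Aen at 29 CPM. The lowest were Sesn1 at 11.9 CPM, Fas at 10.8, Rrm2b at 10.7, Ddb2 at 8.13, Plk3 at 7.09 and Pmaip1 at 3.14 CPM. Most neighbours in this order differ by less than their spread between libraries, and transcripts of different genes may be primed unequally. Fas, the death receptor, varied most within groups, with an SD of 0.67 on the log2 scale, and Eda2r least, with 0.08. Fas stood at 16.7, 10.4 and 7.71 CPM in labelled Nnmt-OE cells with TGFβ and at 15.5, 17 and 6.22 CPM in the untreated ones, so that no group of 3 gave a stable level. In mock cells Fas stood at 7.01, 5.24 and 15.9 CPM with TGFβ and at 14, 7.64 and 6.54 CPM without it.

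**Figure D1:**
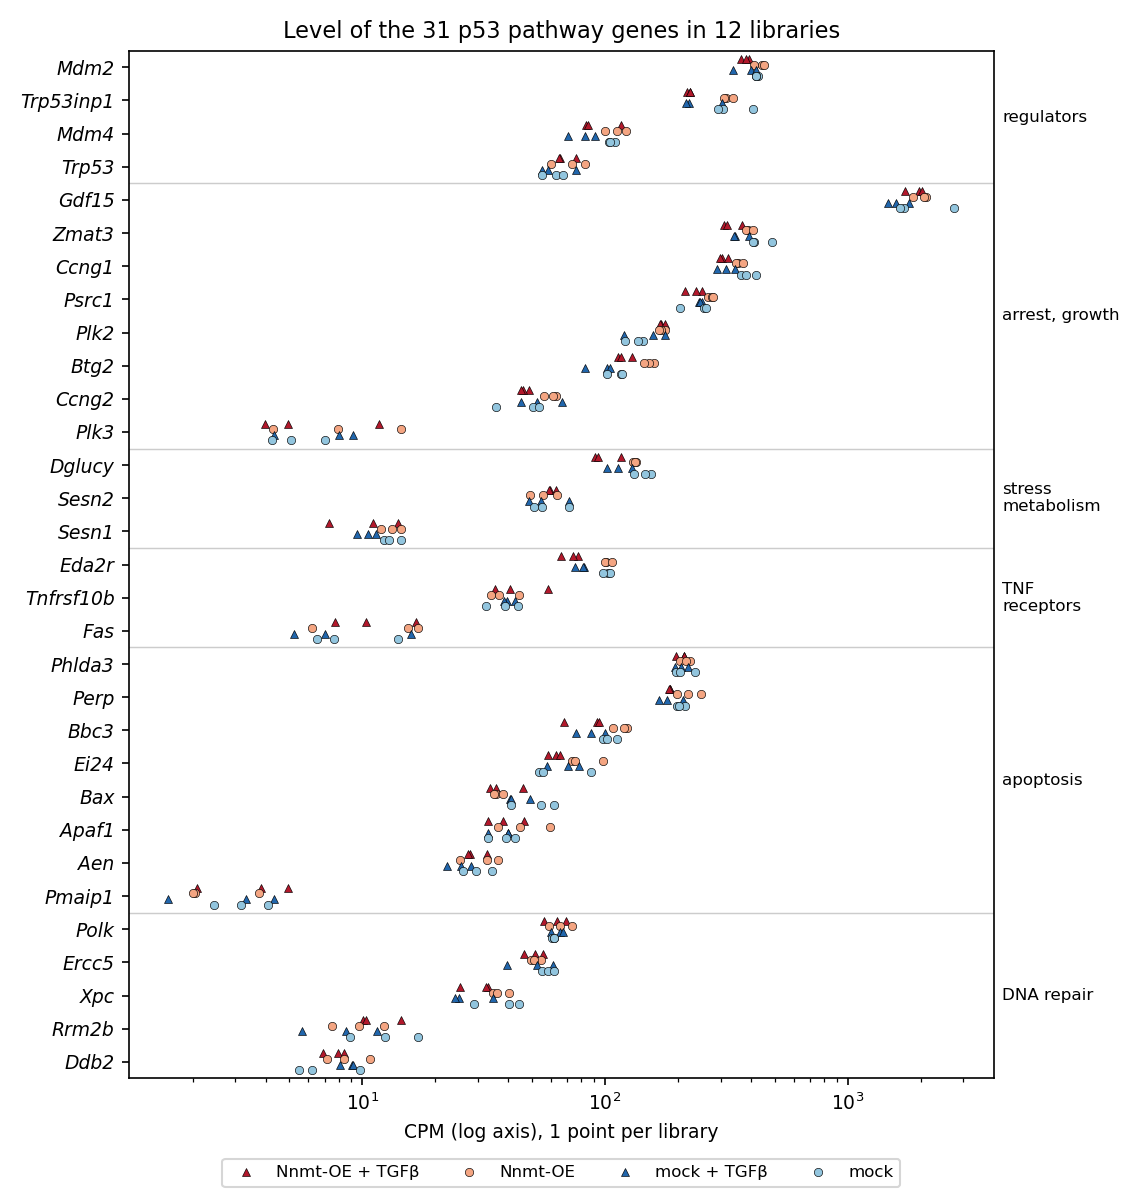
Level of the 31 genes in each of the 12 libraries, in CPM on a log axis, with genes grouped by role and 1 point per library (triangles with TGFβ, circles untreated, red labelled Nnmt-OE, blue mock). Gdf15 lies far to the right of the others, at 1470 to 2750 CPM, and the scatter widens among the genes at about 10 CPM and below.

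A set of p53 targets fell with TGFβ. In the comparison of the 6 TGFβ libraries with the 6 untreated libraries, averaged over both constructs, 8 of the 31 genes fell and 0 rose at an edgeR quasi-likelihood adjusted p under 0.05. The 8 were Trp53inp1 (ENSMUSG00000028211), Eda2r (ENSMUSG00000034457), Dglucy (ENSMUSG00000021185), Ccng1 (ENSMUSG00000020326), Zmat3 (ENSMUSG00000027663), Bbc3 (ENSMUSG00000002083), Btg2 (ENSMUSG00000020423) and Mdm4 (ENSMUSG00000054387). Of all 12897 genes, 2.6% fell and 2.48% rose in that comparison. The members are more abundant than most genes, which makes calls easier, so the same shares were taken over genes with a mean of at least 10 CPM. There 8 of 28 members (28.6%) fell, against 3.43% of 9125 genes. Of the 31 members, 25 had a log2 fold change below 0, against 50.8% of all genes, and their median was -0.16, against -0.0046 over all genes. With the 3 libraries that stood apart left out, 7 of the same 8 were called, and 5 were called without mock TGFβ replicate 2 or without labelled Nnmt-OE TGFβ replicate 2. In bulk RNA, fewer cells that express a gene and less RNA per cell cannot be told apart. That p53 targets were lower with TGFβ in these libraries was known when the 31 were chosen.

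Among the 4 regulators, Trp53inp1 and Mdm4 fell and Mdm2 and Trp53 did not pass. Trp53inp1 encodes a stress-induced protein that promotes p53 activity and autophagy. It stood at 218, 224 and 225 CPM in labelled Nnmt-OE cells with TGFβ, against 314, 310 and 337 CPM in the untreated ones. In mock cells the values were 223, 215 and 305 CPM with TGFβ, against 408, 307 and 291 CPM without it. The labelled Nnmt-OE groups were far apart, and in mock cells only TGFβ replicate 3 reached into the untreated range. Averaged over both constructs its log2 fold change was -0.48 ± 0.08 (SE, edgeR adjusted p = 0.000323), the largest fall among the 8 on this scale.

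Mdm4 encodes the Mdm2 relative that masks p53's activation domain. It stood at 83.5, 85.3 and 116 CPM in labelled Nnmt-OE cells with TGFβ, against 122, 100 and 112 CPM in the untreated ones, with overlap. Mock cells held 91.1, 82.6 and 70.5 CPM with TGFβ, against 110, 104 and 105 CPM without it, with no overlap. Its averaged log2 fold change was -0.31 ± 0.09 (edgeR adjusted p = 0.0402), and this was the weakest of the 8 calls. The call was made in 3 of the 12 fits that each left out 1 library. It was lost without mock replicate 1 or 3 (edgeR adjusted p = 0.0575 in each), mock replicate 2 (0.0612), mock TGFβ replicate 2 (0.0776) or 3 (0.104), labelled Nnmt-OE replicate 1 (0.137) or 3 (0.0887), and labelled Nnmt-OE TGFβ replicate 1 (0.142) or 2 (0.129).

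Mdm2, the ligase and feedback gene, stood at 391, 364 and 383 CPM in labelled Nnmt-OE cells with TGFβ, against 444, 454 and 413 CPM untreated. Mdm2 in mock cells stood at 398, 419 and 337 CPM with TGFβ, against 428, 420 and 418 CPM untreated. All TGFβ libraries lay below the untreated libraries of the same construct except that mock TGFβ 2, at 419 CPM, lay between mock 3 and mock 2. The difference was small, -0.17 ± 0.06 on the log2 scale with an interval of -0.29 to -0.04, and did not pass (edgeR adjusted p = 0.119). Trp53 stood at 76.2, 65.1 and 64.4 CPM in labelled Nnmt-OE cells with TGFβ, against 82.5, 59.8 and 73 CPM untreated. In mock cells Trp53 stood at 54.9, 58.5 and 75.8 CPM with TGFβ, against 62.7, 67.4 and 55.1 CPM untreated. The groups of Trp53 overlapped throughout, and its averaged log2 fold change of -0.02 had an interval of -0.23 to 0.20 (edgeR adjusted p = 0.967). A change of Trp53 transcript of any size within that interval remains possible.

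Among the 8 genes of arrest and growth control, Ccng1, Zmat3 and Btg2 fell. Ccng1 encodes cyclin G1, which brings a phosphatase to Mdm2. It stood at 305, 321 and 299 CPM in labelled Nnmt-OE cells with TGFβ, against 353, 346 and 371 CPM untreated. Mock cells held 314, 289 and 344 CPM with TGFβ, against 420, 364 and 381 CPM untreated. All 6 TGFβ libraries lay below all 6 untreated ones, which held for 3 members (Eda2r, Dglucy and Ccng1) and 1.64% of all genes. Its averaged log2 fold change was -0.25 ± 0.06 (edgeR adjusted p = 0.00916), and without mock TGFβ replicate 2 the adjusted p was 0.0569.

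Zmat3 encodes an RNA-binding zinc finger protein through which p53 acts on splicing and RNA decay. It stood at 308, 319 and 368 CPM in labelled Nnmt-OE cells with TGFβ, against 390, 383 and 409 CPM untreated. In mock cells it stood at 344, 340 and 392 CPM with TGFβ, against 488, 410 and 406 CPM untreated. Within each construct the groups did not overlap, and the averaged log2 fold change was -0.26 ± 0.07 (edgeR adjusted p = 0.00916). Btg2, an antiproliferative partner of the deadenylase complex, stood at 129, 113 and 116 CPM in labelled Nnmt-OE cells with TGFβ, against 159, 152 and 145 CPM untreated. In mock cells Btg2 stood at 102, 105 and 82.6 CPM with TGFβ, against 102, 116 and 118 CPM untreated. The groups of Btg2 were apart in labelled Nnmt-OE cells and overlapped in mock cells, and the averaged log2 fold change was -0.28 ± 0.08 (edgeR adjusted p = 0.0309).

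The Btg2 call was kept in 5 of the 12 fits that left out 1 library. It was lost without mock replicate 2 (edgeR adjusted p = 0.073) or 3 (0.0815), mock TGFβ replicate 3 (0.0953), labelled Nnmt-OE replicate 1 (0.0938) or 2 (0.0554), and labelled Nnmt-OE TGFβ replicate 2 (0.0939) or 3 (0.0824). With all 3 libraries that stood apart left out, the log2 fold change of Btg2 was -0.25 and did not pass (edgeR adjusted p = 0.0567). The other 5 genes of arrest and growth control were not called. Gdf15 stood at 1720, 1960 and 2020 CPM in labelled Nnmt-OE cells with TGFβ, against 2110, 1860 and 2070 CPM untreated. In mock cells Gdf15 stood at 1470, 1580 and 1790 CPM with TGFβ, against 2750, 1700 and 1650 CPM untreated, where mock replicate 1 was far above the rest. Its averaged log2 fold change was -0.21 ± 0.13, with an interval of -0.50 to 0.08 (edgeR adjusted p = 0.492). The spindle-associated gene Psrc1 (-0.09), cyclin G2 gene Ccng2 (-0.06) and polo-like kinase genes Plk2 (0.10) and Plk3 (0.01) had averaged log2 fold changes nearer to 0.

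Of the 3 genes of stress metabolism, Dglucy fell. It encodes a mitochondrial D-glutamate cyclase. Dglucy stood at 91.1, 93.3 and 116 CPM in labelled Nnmt-OE cells with TGFβ, against 131, 134 and 133 CPM untreated. Mock cells held 129, 102 and 113 CPM with TGFβ, against 155, 146 and 132 CPM untreated. No TGFβ library reached an untreated one, and the averaged log2 fold change was -0.37 ± 0.08 (edgeR adjusted p = 0.00377). The sestrin genes Sesn1 and Sesn2, whose proteins restrain mTORC1 under stress, had averaged log2 fold changes of -0.30 and 0.05 and were not called.

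Of the 3 genes of TNF receptor family members, Eda2r fell. It encodes the receptor for the A2 form of ectodysplasin and, unlike the other two, has no death domain. Eda2r stood at 77.3, 74.2 and 66.1 CPM in labelled Nnmt-OE cells with TGFβ, against 101, 99.6 and 107 CPM untreated. In mock cells it stood at 75.1, 82.3 and 81.3 CPM with TGFβ, against 103, 105 and 98.2 CPM untreated. The 6 TGFβ libraries and the 6 untreated ones were far apart, at 66.1 to 82.3 and 98.2 to 107 CPM. The averaged log2 fold change was -0.43 ± 0.08 (edgeR adjusted p = 0.000936). Fas (-0.09) and the TRAIL receptor gene Tnfrsf10b (0.14) were not called, and their intervals on the log2 scale ran from -0.68 to 0.51 and from -0.12 to 0.41.

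Of the 8 other genes of cell death, Bbc3 fell. It encodes PUMA, the BH3-only protein that frees BAX and BAK from their inhibitors. Bbc3 stood at 92.6, 67.8 and 94.2 CPM in labelled Nnmt-OE cells with TGFβ, against 123, 108 and 120 CPM untreated. In mock cells it stood at 100, 75.9 and 87.3 CPM with TGFβ, against 98.4, 112 and 102 CPM untreated. The groups were apart in labelled Nnmt-OE cells, whereas mock TGFβ replicate 1 reached into the untreated mock range. The averaged log2 fold change was -0.36 ± 0.09 (edgeR adjusted p = 0.0137). Without mock TGFβ replicate 2 the adjusted p was 0.0697, and without labelled Nnmt-OE TGFβ replicate 2 it was 0.0754.

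Bax (-0.09), Phlda3 (-0.05), Perp (-0.20), Ei24 (-0.17), Aen (-0.17), Apaf1 (-0.14) and Pmaip1 (0.21) were not called, these being averaged log2 fold changes. Perp, a membrane protein gene of desmosomes and cell death, came nearest (edgeR adjusted p = 0.105). The interval of Phlda3, which encodes an inhibitor of Akt, ran from -0.19 to 0.09 at a mean of 210 CPM. Pmaip1, which encodes the BH3-only protein NOXA, had a minimum of 9 reads in a library, and its interval of -0.74 to 1.16 bounds little. None of the 5 genes of DNA repair and nucleotide supply was called. The excision repair gene Xpc had an averaged log2 fold change of -0.36 ± 0.14 (edgeR adjusted p = 0.152), and Ercc5 (-0.10), Ddb2 (0.06), Polk (0.00) and Rrm2b (-0.16) lay closer to 0.

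Markers of cell type moved with the same treatment. The 13 tubule markers summed to 1540 to 1690 CPM in labelled Nnmt-OE cells with TGFβ, against 2010 to 2060 CPM untreated, and to 1500 to 1530 CPM in mock cells with TGFβ, against 1700 to 2010 CPM untreated. The sum was led by Aqp1, which averaged 712 ± 25 CPM in labelled Nnmt-OE cells with TGFβ, against 1120 ± 15.1 CPM untreated, and 643 ± 39.2 CPM in mock cells with TGFβ, against 935 ± 114 CPM untreated (SD, n = 3 each). Of the 7 that were tested, 4 were not called, Aqp1 and Cdh16 fell by 0.60 ± 0.06 and 0.63 ± 0.09 on the log2 scale and Krt8 rose by 0.38 ± 0.09 (edgeR adjusted p = 8.98e-10, 9.94e-06 and 0.00766). The 6 fibroblast markers summed to 10.2 to 16.1 CPM in labelled Nnmt-OE cells with TGFβ, against 1.17 to 5.54 CPM untreated. In mock cells the fibroblast sum was 7.95 to 13.7 CPM with TGFβ, against 3.02 to 6.54 CPM untreated. Of these markers only Col1a1 and Col1a2, at low means of 6.56 and 1.32 CPM, had enough reads to be tested. Both were called higher over both constructs (edgeR adjusted p = 0.0124 and 0.0284), with overlap between libraries for Col1a2. Pdgfra and Dcn averaged 0.0592 and 0.203 CPM, and Col3a1 and Lum had 0 counts in every library. The 5 endothelial markers summed to at most 0.165 CPM in any library. The part of these shifts in the fall of the p53 targets was not tested.

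**Figure D2:**
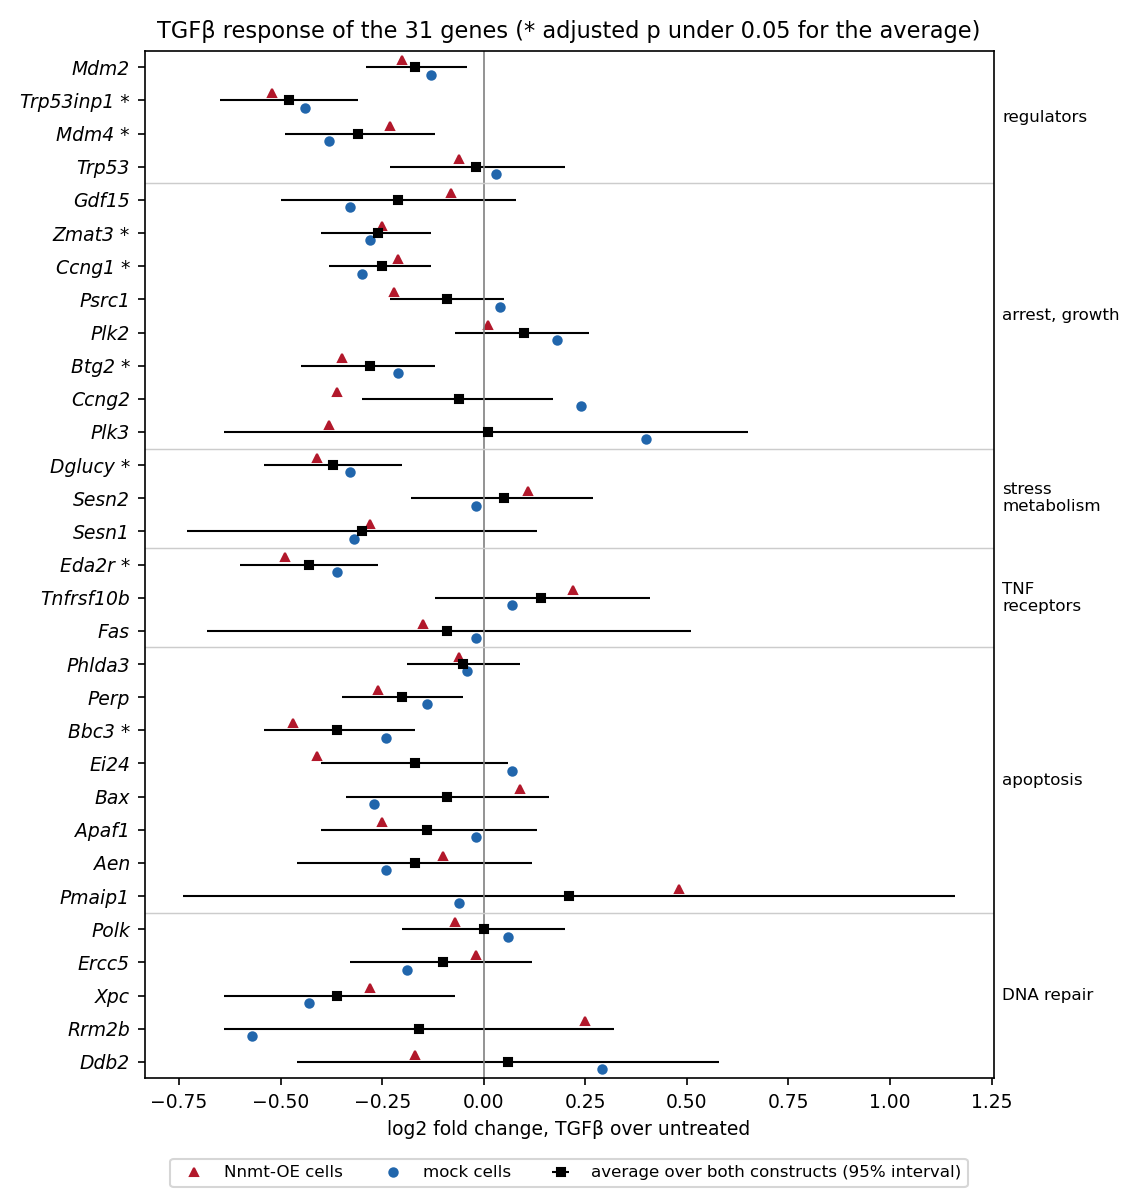
TGFβ response of the 31 genes as log2 fold change of TGFβ over untreated, in labelled Nnmt-OE cells (triangles), mock cells (circles) and averaged over both constructs (squares with 95% intervals); asterisks mark adjusted p under 0.05 for the average. The 8 marked genes lie left of 0 with intervals that stop short of it. Of the 31 averages 25 are below 0, that of Polk so slightly that its square is drawn at 0.

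**Figure D3:**
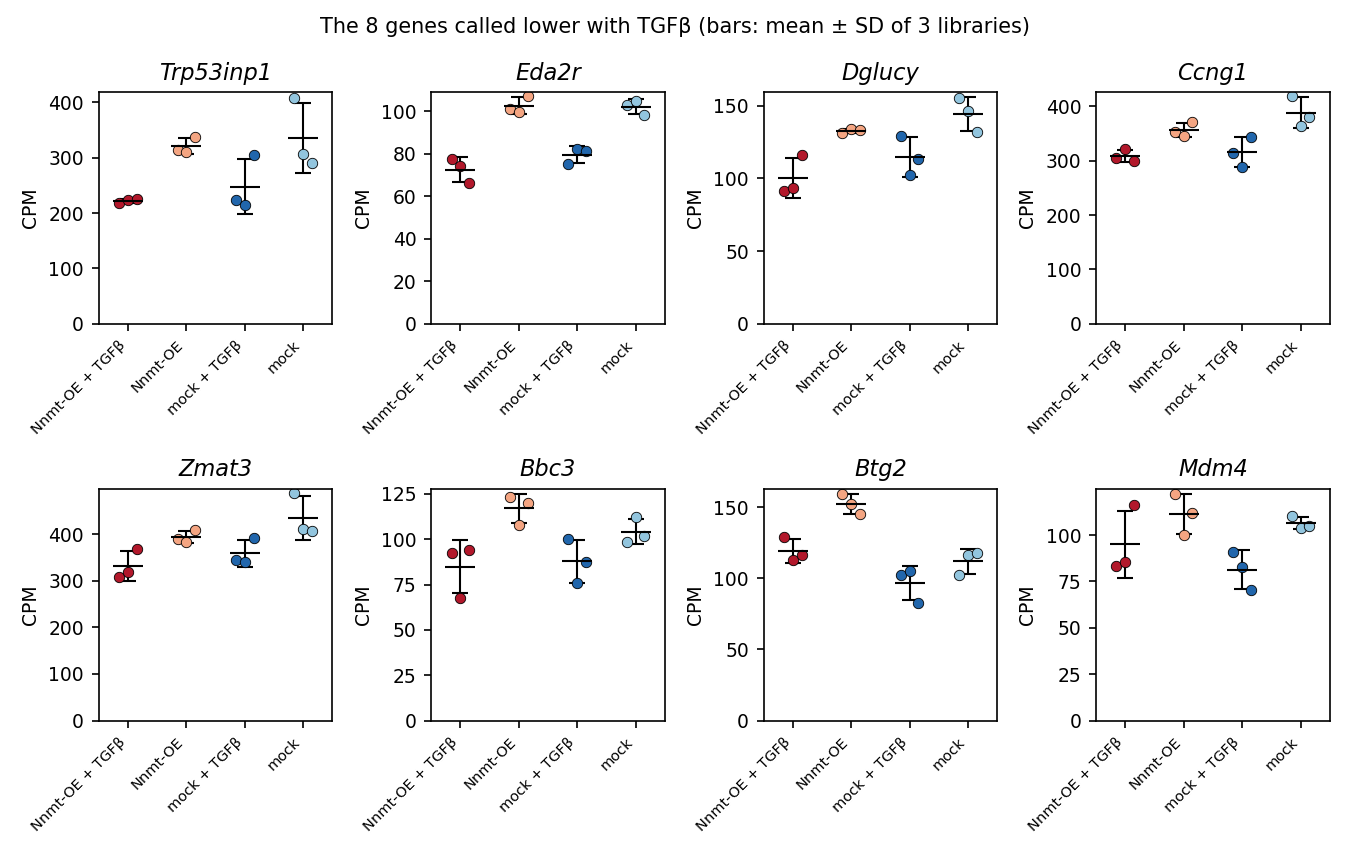
Levels of the 8 genes called lower with TGFβ, in CPM from 0, with 1 point per library and bars for the mean ± SD of 3 libraries, groups in the order labelled Nnmt-OE with TGFβ, labelled Nnmt-OE, mock with TGFβ, mock. In each panel both TGFβ means lie below the untreated mean of the same construct; Eda2r, Dglucy and Ccng1 show no overlap over all 12 libraries.

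Within 1 construct, fewer genes passed, with 3 libraries against 3. In labelled Nnmt-OE cells Trp53inp1 fell by 0.52 ± 0.12 on the log2 scale (edgeR adjusted p = 0.0158) and Eda2r by 0.49 ± 0.12 (edgeR adjusted p = 0.0214). These were 2 of 31 members, against 0.744% of all genes that fell. Bbc3 (-0.47, edgeR adjusted p = 0.0578) and Dglucy (-0.41, edgeR adjusted p = 0.0695) came next. In 13 members the 3 TGFβ libraries lay below the 3 untreated ones, as in 8.89% of all genes, and the members' median was -0.21, against -0.0016 over all genes. The Trp53inp1 call was lost without labelled Nnmt-OE replicate 1 (adjusted p = 0.052) or 3 (0.0951) or labelled Nnmt-OE TGFβ replicate 1 (0.0845), 2 (0.0705) or 3 (0.084), all by edgeR. That of Eda2r was lost without labelled Nnmt-OE replicate 1 (adjusted p = 0.0663), 2 (0.0531) or 3 (0.124) or labelled Nnmt-OE TGFβ replicate 2 (0.0705) or 3 (0.17), all by edgeR. DESeq2 called 4 members, Bbc3 and Dglucy besides those 2. With the 3 libraries that stood apart left out, edgeR called Trp53inp1, Zmat3, Bbc3 and Dglucy and not Eda2r (adjusted p = 0.0555).

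In mock cells edgeR called 0 members, against 1.43% of all genes called in either direction, while 7 members had an unadjusted p under 0.05 and were lower, against 5.93% of all genes. DESeq2 called 3 (Ccng1, Eda2r and Trp53inp1) and limma-voom called 1 (Trp53inp1). Trp53inp1 had a log2 fold change of -0.44 ± 0.12 (edgeR adjusted p = 0.0552) and Ccng1 of -0.30 ± 0.09 (edgeR adjusted p = 0.0818). They were followed by Zmat3 at -0.28 ± 0.09 (edgeR adjusted p = 0.141) and Eda2r at -0.36 ± 0.12 (edgeR adjusted p = 0.145). Trp53inp1 passed without mock replicate 2 (edgeR adjusted p = 0.0494), mock replicate 3 (0.0159) or mock TGFβ replicate 3 (0.000934), and Ccng1 without mock TGFβ replicate 3 (0.0389). In 6 members the TGFβ libraries lay below the untreated ones, as in 8.58% of all genes. The members' median was -0.14, against -0.0019 over all genes.

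The responses of both constructs were then compared with each other. The interaction test in edgeR called 0 members and 0 genes (0% of all genes). At an unadjusted p under 0.05 there were 2 members, Ccng2 and Ei24, and 3.88% of all genes. DESeq2 and limma-voom called 0 members as well. Ccng2 stood at 48.6, 46 and 45.2 CPM in labelled Nnmt-OE cells with TGFβ, against 55.9, 62.6 and 61.3 CPM untreated. In mock cells Ccng2 stood at 66.6, 52.7 and 44.9 CPM with TGFβ, against 35.5, 50.3 and 53.4 CPM untreated. The labelled Nnmt-OE groups were apart and the mock groups overlapped, and the difference of the responses was -0.60 ± 0.23 on the log2 scale (edgeR adjusted p = 0.999).

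Ei24, which encodes a membrane protein of the endoplasmic reticulum, stood at 62.6, 65.1 and 58 CPM in labelled Nnmt-OE cells with TGFβ, against 73.4, 98.1 and 75.2 CPM untreated. In mock cells it stood at 70.2, 78.5 and 57.8 CPM with TGFβ, against 53.5, 55.6 and 87.3 CPM untreated. Its difference of responses was -0.48 ± 0.23 (edgeR adjusted p = 0.999), with mock replicate 3 far above its group. Psrc1 stood at 252, 214 and 238 CPM in labelled Nnmt-OE cells with TGFβ, against 267, 276 and 278 CPM untreated, and in mock cells at 243, 250 and 247 CPM with TGFβ, against 204, 257 and 261 CPM untreated. Rrm2b, a ribonucleotide reductase subunit gene, stood at 10.1, 14.4 and 10.4 CPM in labelled Nnmt-OE cells with TGFβ, against 7.5, 9.68 and 12.3 CPM untreated. In mock cells Rrm2b stood at 11.5, 8.55 and 5.66 CPM with TGFβ, against 16.9, 8.91 and 12.4 CPM untreated. The differences of responses were -0.26 ± 0.14 for Psrc1 and 0.81 ± 0.48 for Rrm2b, neither of them called (edgeR adjusted p = 0.999 each). The median member's 95% interval spanned 0.45 to either side of its difference of responses.

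**Figure D4:**
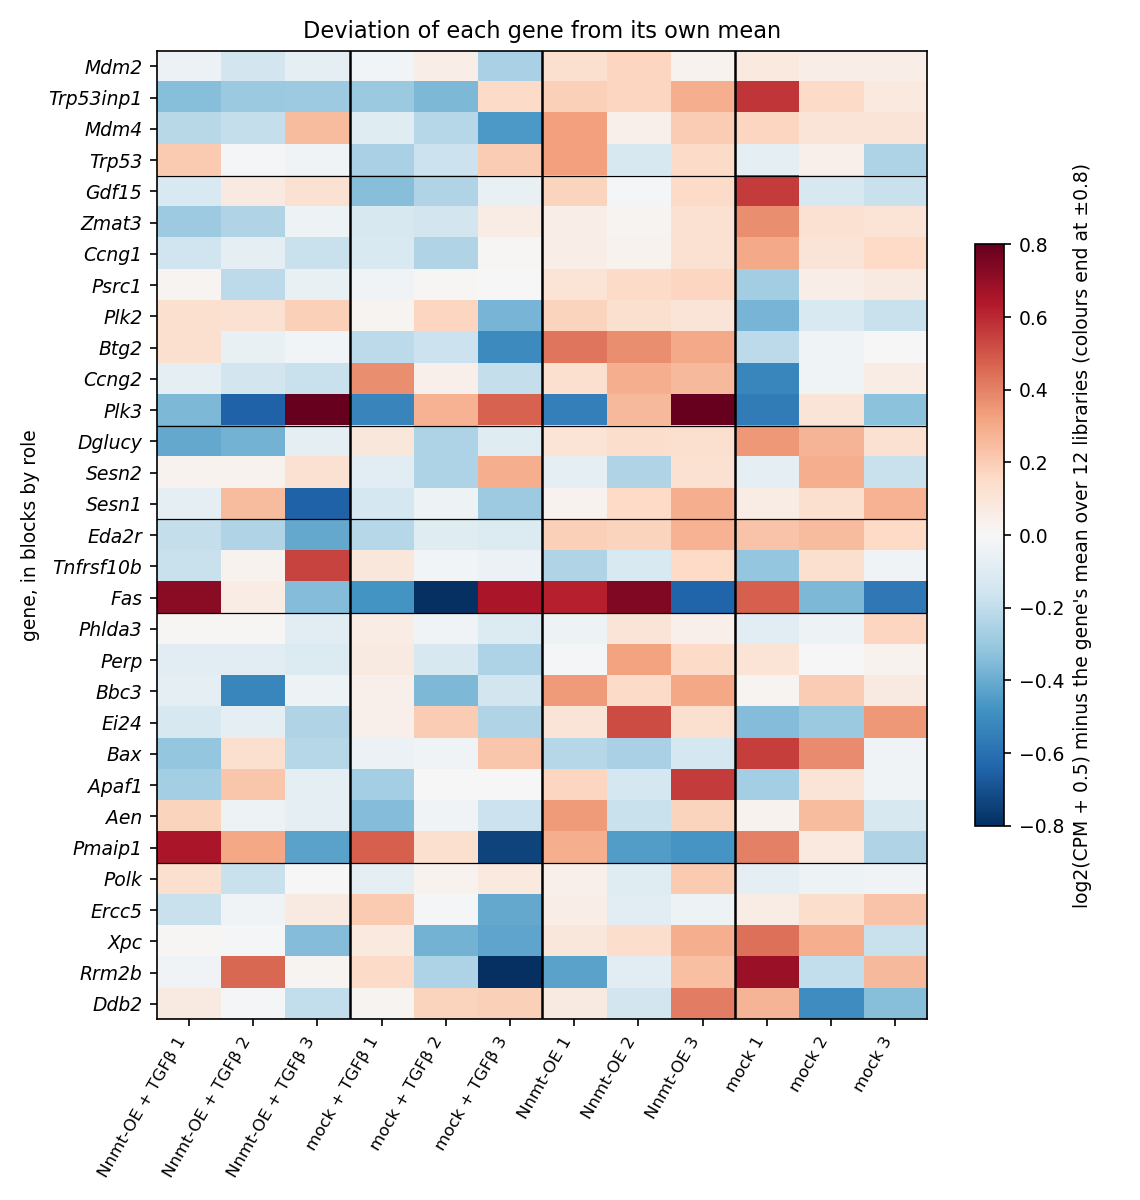
Deviation of each gene from its own mean over the 12 libraries, as log2(CPM + 0.5), red above and blue below, with libraries in columns by group and genes in blocks by role. The 6 TGFβ columns on the left are mostly blue for the 8 called genes, mock 1 is red for Gdf15, Trp53inp1 and Rrm2b, and the rows of Fas, Plk3 and Pmaip1 change colour within groups.

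Between the constructs edgeR called none of the members, and Btg2 came nearest, in the average over both treatments. Without TGFβ, edgeR called 0 of 31 members and 0.0388% of all genes, and DESeq2 and limma-voom called 0 members. At an unadjusted p under 0.05 there were 4 members higher (Btg2, Plk2, Ccng2 and Ei24) and 1 lower (Bax), against 5.84% of all genes in either direction. Btg2 stood at 159, 152 and 145 CPM in untreated labelled Nnmt-OE cells, against 102, 116 and 118 CPM in untreated mock cells. With TGFβ it stood at 129, 113 and 116 CPM in labelled Nnmt-OE cells, against 102, 105 and 82.6 CPM in mock cells. The groups were apart in each setting. Of all genes, 5.64% were apart and higher untreated, and 5.27% were with TGFβ. The share of genes apart in both settings at once was not counted. The log2 fold changes of Btg2 were 0.45 ± 0.11 (edgeR adjusted p = 0.453) and 0.31 ± 0.12 (edgeR adjusted p = 0.998).

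Averaged over both treatments, with 6 libraries against 6, Btg2 had a log2 fold change of 0.38 ± 0.08 and lay on the threshold (edgeR adjusted p = 0.0504). edgeR therefore called 0 members there, against 0.0698% of all genes, with 2 members higher and 1 lower at an unadjusted p under 0.05 (6.23% of all genes in either direction). Btg2 passed with RLE scaling (adjusted p = 0.0486), with library totals (0.0494), without a filter on low counts (0.0181) and in DESeq2 (0.00722), and not in limma-voom (0.0609). In the 12 fits without 1 library its edgeR adjusted p ran from 0.0713 to 0.266, and with the 3 libraries that stood apart left out it was 0.234. Btg2 is often counted among the immediate early genes. Of 30 others tested, 7 were higher and 0 lower in labelled Nnmt-OE cells over both treatments by edgeR. These 7 were among the 9 genes called there (0.0698% of all genes). The summed level of 32 immediate early genes was 3400 to 3700 CPM in untreated labelled Nnmt-OE cells, against 2680 to 2870 CPM in untreated mock cells. Its part in the Btg2 difference was not tested.

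Plk2, a polo-like kinase gene, stood at 176, 170 and 167 CPM in untreated labelled Nnmt-OE cells, against 121, 143 and 137 CPM in untreated mock cells. With TGFβ it stood at 170, 169 and 177 CPM in labelled Nnmt-OE cells, against 158, 176 and 120 CPM in mock cells, with overlap. The log2 fold changes of Plk2 were 0.36 ± 0.11 untreated (edgeR adjusted p = 0.805) and 0.18 ± 0.11 with TGFβ (edgeR adjusted p = 0.998). Bax, the pore former of the mitochondrial outer membrane, stood at 35.6, 34.8 and 37.9 CPM in untreated labelled Nnmt-OE cells, against 61.6, 54.7 and 41 CPM in untreated mock cells. With TGFβ Bax stood at 33.7, 45.9 and 35.7 CPM in labelled Nnmt-OE cells, against 40.5, 41 and 49 CPM in mock cells. The untreated groups of Bax were apart with a wide mock range, and 5.29% of all genes were likewise apart and lower. Its log2 fold change was -0.54 ± 0.18 untreated (edgeR adjusted p = 0.808) and -0.36 ± 0.12 over both treatments (edgeR adjusted p = 0.6). The Ccng2 values given above put untreated labelled Nnmt-OE cells 0.37 ± 0.16 higher on the log2 scale (edgeR adjusted p = 0.813).

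Both constructs with TGFβ likewise gave 0 members called by edgeR, against 0.0233% of all genes, with 1 member (Btg2) at an unadjusted p under 0.05 (4.46% of all genes) and 0 called by DESeq2 or limma-voom. Dglucy had a log2 fold change of -0.20 ± 0.12 and Mdm4 of 0.22 ± 0.13 in that comparison (edgeR adjusted p = 0.998 each). The members' median log2 fold change was 0.05 untreated, 0.00 with TGFβ and 0.05 over both treatments, all near the medians of all genes, 0.0008, -0.0031 and -0.0014.

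Gdf15 depended on a single library. Averaged over both treatments, its log2 fold change in labelled Nnmt-OE cells over mock cells was 0.11 ± 0.13 (edgeR adjusted p = 0.933). Without mock replicate 1, which held 2750 CPM of Gdf15, it was 0.25 ± 0.05 and passed (edgeR adjusted p = 0.0308). With the 3 libraries that stood apart left out it was 0.27 ± 0.05 (edgeR adjusted p = 0.00393). Without Gdf15 the members summed to 3633 CPM in mock replicate 1, against 3511 and 3477 CPM in the other mock libraries.

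**Figure D5:**
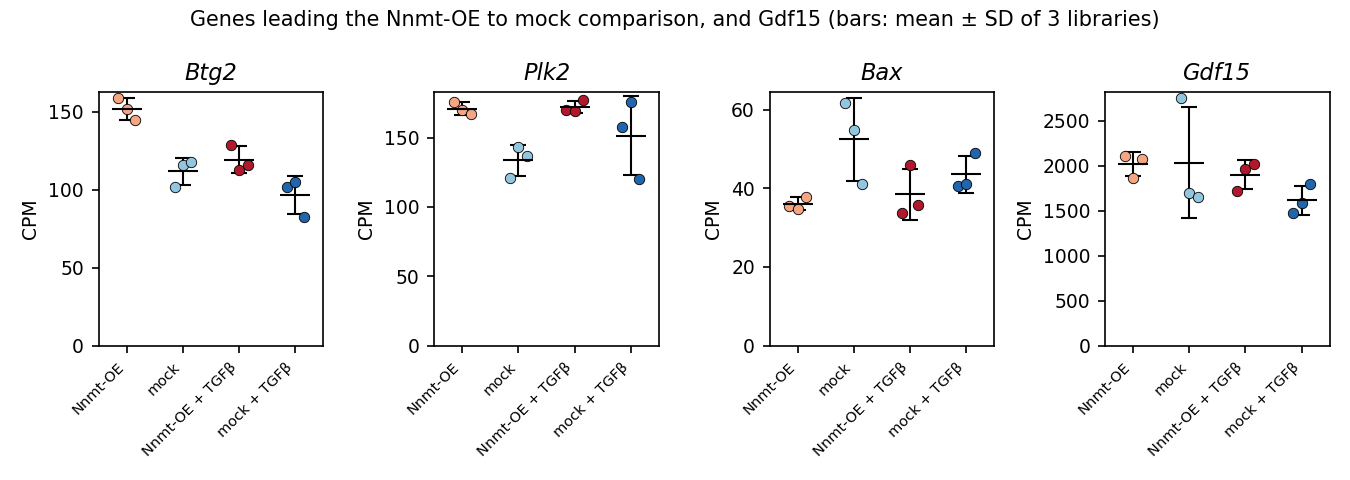
Levels of Btg2, Plk2, Bax and Gdf15 in CPM from 0, with 1 point per library and bars for the mean ± SD of 3 libraries, groups in the order labelled Nnmt-OE, mock, labelled Nnmt-OE with TGFβ, mock with TGFβ. Btg2 is higher in labelled Nnmt-OE cells in both pairs, and 1 mock point of Gdf15, at 2750 CPM, lies far above the others.

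Other genes of the pathway were counted for comparison, from a list of 41 further p53 targets of which 36 were tested. This list and those below were chosen with earlier results of these data known, so they are no independent check of the members. Averaged over both constructs, 3 of the 36 (8.33%) fell with TGFβ and 0 rose, against 2.6% and 2.48% of all genes, and their median log2 fold change was -0.11, against -0.0046 over all genes. Ephx1, which encodes an epoxide hydrolase, stood at 183, 191 and 171 CPM in labelled Nnmt-OE cells with TGFβ, against 233, 226 and 294 CPM untreated. In mock cells Ephx1 stood at 151, 187 and 212 CPM with TGFβ, against 279, 236 and 244 CPM untreated. All 6 TGFβ libraries were below the 6 untreated ones, at -0.47 ± 0.08 on the log2 scale (edgeR adjusted p = 0.000128). The antiproliferative gene Tob1, a relative of Btg2, fell by 0.32 ± 0.08 (edgeR adjusted p = 0.0139) over both constructs and the xylulose reductase gene Dcxr by 0.49 ± 0.15 (edgeR adjusted p = 0.0496).

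Of 22 genes that act upstream of p53, such as damage kinases, edgeR called 0 with TGFβ over both constructs. Of all genes, 2.48% rose and 2.6% fell there. At an unadjusted edgeR p under 0.05, 1 of the 22 was higher, against 8.34% of all genes. The median of the 22 was 0.04, against -0.0046 over all genes. Of 22 genes of the apoptosis core, 1 (4.55%) rose, Bok by 0.59 ± 0.12 (edgeR adjusted p = 0.00222). Of 27 genes of nucleotide excision repair, 1 (3.7%) rose, Ddb1 by 0.20 ± 0.05 (edgeR adjusted p = 0.0196). Both shares were near the 2.48% of all genes that rose. E2F targets are known to be raised by large T antigen, which binds the retinoblastoma protein. Of 32 such genes, edgeR called 0 with TGFβ over both constructs. At an unadjusted edgeR p under 0.05, 6 were higher, against 8.34% of all genes. The median of the 32 was 0.09, against -0.0046 over all genes. In mock cells alone 1 of the 32 (3.12%), the kinase gene Cdk1, was higher by 0.51 ± 0.13 on the log2 scale (edgeR adjusted p = 0.0497). There 0.667% of all genes were higher. In none of the 2 construct comparisons nor their average was a gene of these 5 lists called by edgeR (0.0233 to 0.0698% of all genes).

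Neither of 2 inhibitors left out of the 31 was called with TGFβ. Cdkn1a, which encodes p21, the arrest effector of p53, stood at 1860, 1790 and 1760 CPM in labelled Nnmt-OE cells with TGFβ, against 2000, 1750 and 2020 CPM untreated. In mock cells Cdkn1a stood at 1650, 1640 and 1700 CPM with TGFβ, against 1170, 1820 and 1770 CPM untreated. Its averaged log2 fold change with TGFβ was -0.01 ± 0.08 (edgeR adjusted p = 0.978), and that of Cdkn2a, which encodes p16 and the Mdm2 inhibitor ARF, was -0.06 ± 0.08 (edgeR adjusted p = 0.807). Mock replicate 1, the library highest in Gdf15 and Trp53inp1, was the lowest in Cdkn1a.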

How the data were processed

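Per the labels, RNA came from cells in 6-well plates and 100 ng per sample went into QuantSeq 3′ libraries. The deposited table holds raw read counts per gene for 12 libraries. STAR, HTSeq and GRCh38 are named per the submitters' processing notes, although the identifiers are mouse. The sources used here state no versions, mouse build or strand setting, so reads of overlapping or antisense genes cannot be told apart. By annotated exons 6 members overlap another gene, only Ddb2 one with over 100 counts in all, and Dglucy, the only overlapped gene among the 8 called, one with 0. The 5 HTSeq totals (reads outside genes 26.4 to 28.8%) were left out. GENCODE names matched 99.4% of identifiers. Without stated molecular identifiers, a count is a read and not a molecule.

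All 12 libraries entered 1 edgeR 4.0.16 fit (R 4.3.3) with a mean per group, after filterByExpr (minimum count 10, minimum total 15), TMM scaling (0.981 to 1.011), robust quasi-likelihood F tests and p-values adjusted by Benjamini and Hochberg over 12897 genes (threshold 0.05). The 7 contrasts were TGFβ in each construct, Nnmt-OE against mock under each treatment, both averages and the interaction. CPM use scaled library sizes, and ± after a log2 fold change is its SE. The fit was checked on simulated counts. Alternatives were DESeq2 1.42.0, limma-voom (3.58.1), RLE scaling or library totals alone, no low-count filter or one that asks for 1 CPM in 3 libraries and 50 counts, a replicate block, the compared groups alone, each library left out and the 3 libraries that stood apart left out.

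Members and gene lists were chosen with earlier results of these data known. Values per library are given for members called in any contrast and for the 4 with the smallest p in each, and levels for members with a mean of at least 100 CPM, Trp53, Mdm2 and Mdm4. Of other lists, called genes are named, at most the 4 with the smallest p per list and contrast, and a gene called in several contrasts may be given for 1 of them. Values per library of Fas and Gdf15, and the markers named, were added after their values were seen, and 1 marker is not reported here.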

Additional observations from a re-analysis of the deposited data

How the results depend on the processing

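For members in the contrasts where they were called or among the smallest p, the only ones recomputed singly, direction was kept under the alternatives run, except that Mdm4 in labelled Nnmt-OE over mock cells with TGFβ was -0.04 with the 3 libraries that stand apart left out. The members' median in that comparison was 0.00 when rounded, and its sign differed among the alternatives. For TGFβ averaged over both constructs, the same 8 members were called under RLE scaling, library totals, DESeq2, limma-voom and both filters, 7 with the 3 libraries left out, and 5 to 8 without 1 library. For TGFβ in mock cells, where 0 members were called, library totals, limma-voom, no filter and the 3 libraries left out gave 1, DESeq2 gave 3, and leaving out 1 library gave 0 to 2. The 184 genes called there became 306 in DESeq2, 92 with the compared groups alone, and 98 to 188 without 1 library. For TGFβ in labelled Nnmt-OE cells, the 2 members became 4 in DESeq2, 4 with the 3 libraries left out (1 of them shared, Eda2r lost), 5 with the compared groups alone, and 0 to 4 without 1 library. The 180 genes called there became 295 in DESeq2, 351 with the compared groups alone, and 97 to 305 without 1 library. For labelled Nnmt-OE over mock averaged over both treatments, 1 member was called in DESeq2, with RLE scaling, library totals or no filter (Btg2), 1 with the 3 libraries left out (Gdf15), and 0 to 1 without 1 library. The 9 genes called there became 26 in DESeq2, 19 with no filter, and 5 to 9 without 1 library. The 5 genes called untreated became 13 with no filter, 3 with the compared groups alone and 3 to 6 without 1 library, and the 3 called with TGFβ became 1 to 3. The cause of these shifts was not tested, beyond the fewer samples or genes that some settings hold. 

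No effect shared by same-numbered libraries was seen: their deviations from the group means correlated at -0.12 to 0.07. Whether same-numbered samples were cultured together is not stated, and these correlations cannot tell. With a replicate block, 8 members were called for the averaged TGFβ comparison and 2 in labelled Nnmt-OE cells, as without it, and 0 in the other comparisons.

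The lowest 6 genes, at means of 3.14 to 11.9 CPM, had the fewest reads, and Fas and Plk3 among them also the widest spread between replicates (SD 0.67 and 0.64 on the log2 scale). The median member's 95% interval reached 0.31 to 0.32 on the log2 scale to either side within 1 construct or treatment. For the averages it reached 0.22. Changes smaller than that could go undetected. Larger ones could too, because calls were adjusted for all genes tested and these intervals were not. Between the untreated constructs, Btg2 at 0.45 (edgeR adjusted p = 0.453) and Bax at -0.54 (edgeR adjusted p = 0.808) were not called. Nor was Xpc at -0.36 with TGFβ averaged over both constructs (edgeR adjusted p = 0.152).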

Other observations

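Immediate early genes, which growth factors and stress switch on within minutes, differed between the constructs. The list was chosen with earlier results of these data known, so its counts are no independent support. Of 30 tested, edgeR called 5 higher in untreated labelled Nnmt-OE cells than in untreated mock cells, led by Egr1, Trib1, Dusp1 and Ccn1. These were all of the 5 genes called there (0.0388% of all genes). With TGFβ 3 were higher, Egr1, Ier3 and Dusp1, again all of the 3 genes called (0.0233% of all genes). Over both treatments 7 were higher, of 9 genes called (0.0698% of all genes), led by Egr1, Dusp1, Ier3 and Ccn1. In each comparison 0 were lower. The transcription factor gene Egr1 stood at 280, 268 and 252 CPM in untreated labelled Nnmt-OE cells, against 122, 110 and 109 CPM in untreated mock cells (log2 fold change 1.23 ± 0.11, edgeR adjusted p = 3.56e-10). With TGFβ Egr1 stood at 149, 163 and 188 CPM in labelled Nnmt-OE cells, against 76.8, 75.6 and 80.6 CPM in mock cells (1.10 ± 0.11, edgeR adjusted p = 1.43e-08).

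With TGFβ over both constructs, 4 immediate early genes rose (2.48% of all genes) and 4 fell (2.6%). Those with the smallest p were Egr1, Klf4 and Dusp6, which fell, and Ccn1, which rose. In mock cells 3 rose (0.667% of all genes) and 2 fell (0.76%), led by Ccn1, Egr1, Klf4 and Ccn2. In labelled Nnmt-OE cells 2 rose (0.651% of all genes) and 4 fell (0.744%), led by Egr1, Trib1, Dusp6 and Ccn1. Of 21 genes of the ATF4 response, Asns and Psat1, enzymes of asparagine and serine synthesis, rose by 0.39 ± 0.09 (edgeR adjusted p = 0.00638) and 0.29 ± 0.08 (edgeR adjusted p = 0.0257) over both constructs. Those 2 were 9.52% of the list, against 2.48% of all genes that rose. The lipoprotein receptor gene Vldlr of that list fell by 0.43 ± 0.12 in labelled Nnmt-OE cells (edgeR adjusted p = 0.0455), as did 0.744% of all genes. Of 7 mitochondrial transcripts and 2 leukocyte markers tested, 0 were called by edgeR with TGFβ over both constructs. At an unadjusted edgeR p under 0.05, 1 mitochondrial transcript was higher, against 8.34% of all genes.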
